A study of Mus musculus with 3 samples.

Results

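The SOCS family was described here as 8 mouse genes, Socs1 to Socs7 and Cish, with every Tet2 CLIP peak whose midpoint lay in one of their gene spans. These spans held 16 of the 8196 peaks in the data, with 6, 5 and 5 peaks in replicates 1, 2 and 3. The peaks came from 5 of the 8 genes, namely Socs1, Socs2, Socs3, Socs4 and Cish, while Socs5, Socs6 and Socs7 held none. The rule used the names of the genes and the positions of peaks, and not their heights.

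CLIP (cross-linking and immunoprecipitation) maps where a protein touches RNA, by ultraviolet cross-linking in cells followed by pull-down of the protein. The study asked which RNAs are bound by Tet2, an enzyme that oxidises methylated cytosine, in mast cells grown from bone marrow of C57BL/6 mice. There is 1 group of 3 libraries. All were made from cells kept for 4 to 6 weeks in interleukin-3 (10 ng/ml) and stem cell factor (5 ng/ml), labelled as FcɛRI+ c-Kit+ with a purity above 97.5%, cross-linked at 400 and then 200 mJ per cm2, and pulled down with an antibody to Tet2. The labels name no genetic change, no age and no separate animals or cultures, although the design text calls the triplicates biological, so an SD below is the spread over 3 libraries and may be technical in part. Neither an input nor a control-antibody library was analysed here, and no RNA levels, so Tet2 binding and the abundance of an RNA cannot be told apart at any peak.

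SOCS proteins are feedback inhibitors of cytokine signalling. Cytokine receptors activate JAK kinases, which phosphorylate STAT transcription factors, and STATs switch on several SOCS genes. Each SOCS protein carries an SH2 domain, which binds phosphorylated tyrosines, and a SOCS box, which recruits an elongin and cullin ubiquitin ligase. Socs1 and Socs3 also have a short segment that blocks the catalytic site of JAKs, and Cish and Socs2 are classical targets of STAT5, which acts downstream of the interleukin-3 receptor. Socs3 is the member for which published work on Tet2 describes repression of the mRNA by Tet2.

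Heights are the authors' normalized heights, which sum to 1 in each library. All are multiples of 1 small step, and they are given below in units of it: 1 over 19213, 18270 and 15431 in replicates 1, 2 and 3. No source used here says if a unit stands for 1 read. A unit is a larger share of the library in replicate 3 than in replicate 1, so equal units are not equal normalized heights. Socs4, at 9, 11 and 9 units, had normalized heights of 0.000468, 0.000602 and 0.000583. Means, SDs, cutoffs, classes and distances given in units are not adjusted for this. The lists held 3019, 2800 and 2377 peaks, with a median height of 4 units and a lowest height of 2, 2 and 3 units, so a gene without a peak may still have been bound below the level at which peaks were listed. Of the mast cell markers, 6 of 10 held a peak (Kit, Gata2, Cpa3, Tpsb2, Hdc and Slc18a2), and Fcer1a, Ms4a2, Cma1 and Mcpt4 held none. Of the macrophage, neutrophil, lymphocyte and erythroid markers, 1 of 16 held a peak (Adgre1). Over all protein-coding genes, 14.1% had a peak in any library, so a count in only 16 genes says little about those lineages.

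In the family as a whole, 5 of 8 genes (62.5%) had a peak somewhere in the 3 libraries, while 14.1% of the 21900 protein-coding genes did, and 12.8% of the 13053 protein-coding genes whose spans lie between 1729 and 36251 nt, the range of the family. In all 3 libraries, 2 of 8 members (25.0%) held a peak, against 3.16% of protein-coding genes. By library, 4, 4 and 3 members held a peak in replicates 1, 2 and 3, while the share over protein-coding genes was 8.55%, 8.04% and 7.02%. With only peaks of at least 5 units, 3 of 8 members (37.5%) held one, against 5.65% of protein-coding genes. The members were chosen with results known, and no test was run on the count.

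The family's peaks took 0.199%, 0.179% and 0.210% of the peaks of replicates 1, 2 and 3, or 0.196% ± 0.0161 (SD, n = 3). With only peaks of at least 5 units the share was 0.360% ± 0.226 (SD, n = 3) of such peaks. All peaks of the family took 0.208%, 0.213% and 0.201% of the summed height, or 0.208% ± 0.00631 (SD, n = 3). Relative to its mean, this total varied less between libraries than the summed height of any single member with a peak. Socs1 and Socs4 made up most of it, with 80.0%, 74.4% and 67.7% of the family's summed height in replicates 1, 2 and 3. With only peaks at least 10 nt wide, the share of summed height varied more between libraries, at 0.234% ± 0.0702 (SD, n = 3). That filter removes the 18-unit Socs1 peak of replicate 2.

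**Figure D1:**
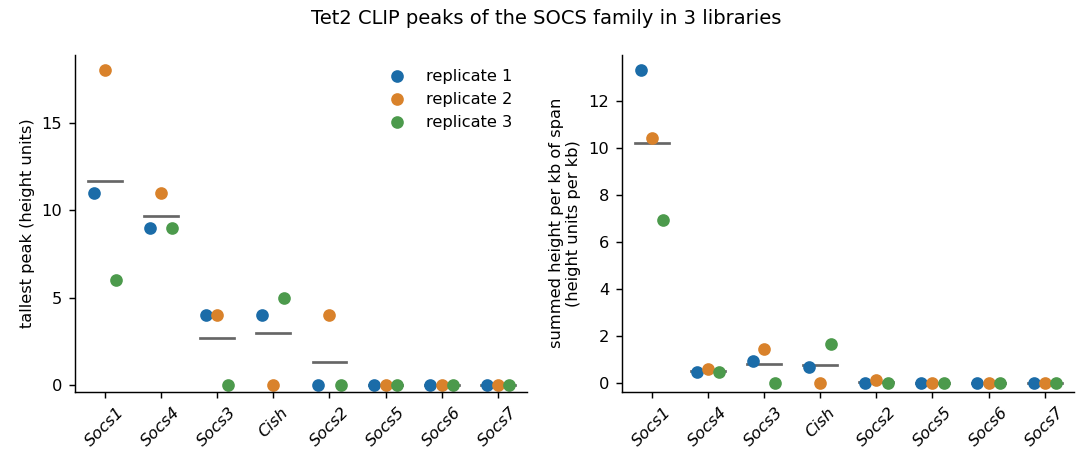
Height of Tet2 CLIP peaks for each of the 8 SOCS family genes, with 1 point per library and a grey line at the mean of 3 libraries; 0 means that no peak was listed. Left, the tallest peak in height units, where Socs1 (11, 18 and 6 units) and Socs4 (9, 11 and 9 units) overlap each other and lie above every value of the other genes; right, summed height per kb of gene span, where the 3 Socs1 points, at 6.94 to 13.3 units per kb, lie above all others.

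Among the JAK-blocking members, Socs1 carried the most signal of the family. It is a short gene (gene ID 12703, chromosome 16, 10783808 to 10785536 on the minus strand, mm10, 1729 nt), and it held 3, 1 and 2 peaks. Its tallest peak stood at 11, 18 and 6 units in replicates 1, 2 and 3. Replicate 2 was the highest and replicate 3 the lowest, and the mean was 11.7 ± 6.03 units (SD, n = 3). The summed height was closer between libraries, at 23, 18 and 12 units, or 0.0987% ± 0.0210 of the library (SD, n = 3). In replicate 2, 4.36% of all peaks were at least as tall as the 18-unit peak of Socs1, whereas in replicate 3, 22.6% were at least as tall as its 6-unit peaks.

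A site near the middle of Socs1 held 11 of 23 units in replicate 1, 18 of 18 in replicate 2 and 6 of 12 in replicate 3. The 18-unit peak of replicate 2 covered 8 nt at chr16:10784751-10784758, and a 6-unit peak of replicate 3 began at the same base and covered 31 nt. The 11-unit peak of replicate 1 covered 17 nt, ending 55 nt away on the side farther from the gene's start. These 3 peaks lay 755 to 857 nt from the annotated start. Under the overlap rule this site was shared by 2 libraries, and when peaks within 100 nt were merged it became 1 locus of 103 nt present in all 3. How often such merging makes a shared locus in other protein-coding genes was not analysed, so the gain is not read as particular to Socs1. The other Socs1 peaks lay closer to the far end of the gene: a 6-unit peak 1124 to 1146 nt from the start in replicate 3, and peaks of 9 and 3 units at 1219 to 1295 nt and 1474 to 1502 nt in replicate 1. None of these 3 overlapped a peak of another library. The 8-nt peak was the only Socs1 peak of replicate 2. With only peaks at least 10 nt wide, Socs1 held none in that library, and the central site was left in replicates 1 and 3.

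Socs3 held low peaks in 2 of the 3 libraries. The gene (ID 12702) lies on chromosome 11, 117966079 to 117970336 on the minus strand of mm10, a span of 4258 nt. Its tallest peak stood at 4 units in replicate 1 and 4 units in replicate 2, and replicate 3 had none in the span. A height of 4 units is the median of the lists, and 57.9% and 57.2% of the peaks of replicates 1 and 2 were at least as tall. The 4-unit peaks of both libraries overlapped by 81 nt, at chr11:117968068-117968163 in replicate 1 and chr11:117968044-117968148 in replicate 2. Counted on the genome, this is 1203 to 1322 nt from the annotated start used here, at 117969366. That start lies inside the gene span, and values per span or per kb use the whole span. Replicate 2 held a second Socs3 peak of 2 units, the lowest height in that list, 1942 to 2082 nt from the start.

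The nearest peak to Socs3 in replicate 3 lay outside the gene span. It stood at 3 units, the lowest height in that list, at chr11:117965640-117965709, 370 nt beyond the end of the span that lies downstream of the gene, and in no other annotated gene. No strand is given for peaks, so it cannot be assigned to Socs3. The peaks inside the spans were likewise placed by position alone, and the strand of their RNA is not known. When spans were widened by 1000 nt at each end, Socs3 counted as holding a peak in all 3 libraries. The same widening added a library to 403 of 21900 protein-coding genes (1.84%), and to 16 of the 698 that held a peak in 2 libraries (2.29%). No other member had a peak within 5000 nt outside its span, and none of the 16 peaks fell in the span of a second gene.

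**Figure D2:**
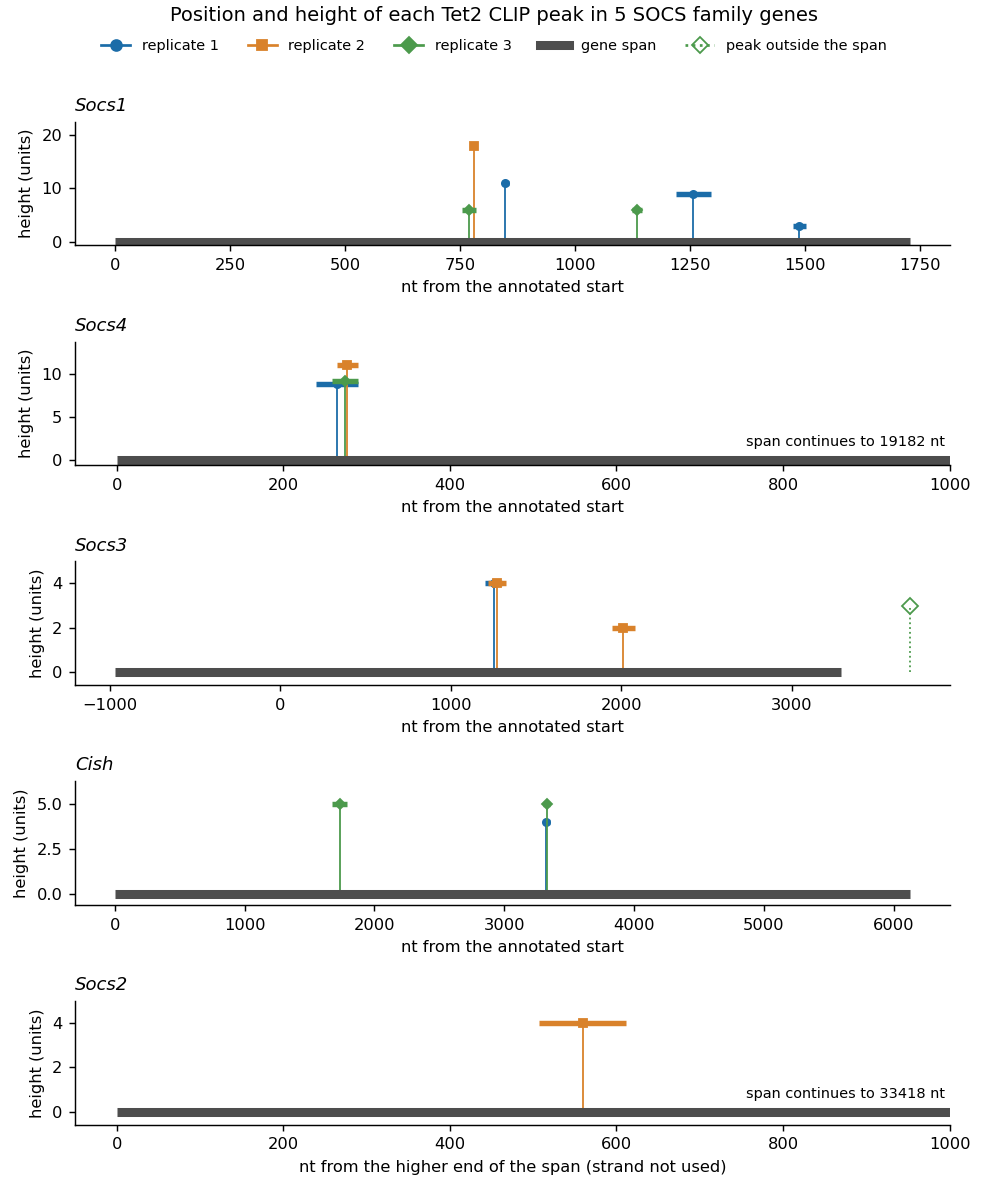
Each Tet2 CLIP peak in the 5 SOCS family genes that held one, as a horizontal bar over its width at its height in units, plotted by distance in nt from the annotated start (from the higher end of the span for Socs2); the grey bar is the gene span and the open diamond a peak outside it. Only the first 1000 nt are drawn for Socs4 and Socs2, and bars of equal height in Socs4 are drawn slightly apart. The 3 Socs4 peaks stack at 239 to 290 nt, while the 6 Socs1 peaks spread from 755 to 1502 nt.

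Cish and Socs2, the members classed as STAT5 targets above, held low peaks. Cish (gene ID 12700, chromosome 9, 107296659 to 107302784 on the plus strand, 6126 nt) encodes an inhibitor that competes for docking sites on cytokine receptors. Its tallest peak stood at 4 units in replicate 1 and 5 units in replicate 3, and replicate 2 had none. A peak 3296 to 3354 nt from the start was found in both libraries with the same last base, and overlapped by 57 nt. Replicate 3 had a second Cish peak of 5 units, 1672 to 1790 nt from the start. Cish and Socs3 were each found in 2 libraries, but were missing from different ones.

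Socs2, best known as an inhibitor of growth hormone signalling, held 1 peak in 1 library. It stood at 4 units in replicate 2, at chr10:95416709-95416814, and covered 106 nt. The peak lay 507 nt inside the higher end of a span of 33419 nt. Replicates 1 and 3 had no Socs2 peak.

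Socs4, whose known role includes restraint of epidermal growth factor receptor signalling, gave the most repeatable site of the family. The gene (ID 67296) spans 19183 nt of chromosome 14, from 47276920 to 47296102 on the plus strand. Each library held exactly 1 peak, of 9, 11 and 9 units, or 0.0551% ± 0.00723 of the summed height (SD, n = 3). The peaks covered chr14:47277159-47277210, chr14:47277184-47277210 and chr14:47277179-47277210, and all ended at the same base, 290 nt from the annotated start. They are the only SOCS family locus with overlapping peaks in all 3 libraries, and the rest of the Socs4 span was empty of peaks in each. Of all peaks, 11.8%, 9.36% and 11.4% were at least as tall in replicates 1, 2 and 3.

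Socs5, Socs6 and Socs7 have spans of 30370, 29196 and 36251 nt and held no peak in any library. Socs5 and Socs4 share a long amino-terminal region, and Socs6 and Socs7 form another related pair. Among the 5 genes with a peak, Socs1, Socs3, Cish and Socs4 have shorter spans than these 3, and Socs2 has a longer one than Socs5 and Socs6.

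Ordered by summed height per kb of span, Socs1 stood first with 13.3, 10.4 and 6.94 units per kb, a mean of 10.2 ± 3.19 (SD, n = 3). Socs3 followed with 0.939, 1.41 and 0 units per kb (0.783 ± 0.717), then Cish with 0.653, 0 and 1.63 (0.762 ± 0.822), Socs4 with 0.469, 0.573 and 0.469 (0.504 ± 0.0602) and Socs2 with 0, 0.120 and 0 (0.0399 ± 0.0691). Every Socs1 value lay above every value of the other members. Socs3, Cish and Socs4 overlapped in range and are not ordered beyond their spread, and Socs2 lay below Socs4 without overlap. Spans include introns, so the scale lowers genes with long introns relative to Socs1.

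On this scale Socs1 was among the densest genes of each library. Of the protein-coding genes with a peak, 0.588%, 1.02% and 1.56% had at least as many units per kb in replicates 1, 2 and 3. For Socs3 the share was 15.2% in replicate 1 and 9.37% in replicate 2. The median over protein-coding genes with a peak was 0.187, 0.177 and 0.180 units per kb. A short span with any peak ranks high here, which bears on Socs1 and Socs3 alike.

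The number of libraries in which each member was found was set beside that of genes with peaks of like height. Among protein-coding genes whose tallest peak over the 3 libraries was 4 to 5 units, 51.6% held a peak in 1 library, 31.6% in 2 and 16.8% in all 3 (1118 genes). Socs3 and Cish, with 2 libraries, and Socs2, with 1, belong to this class. Among genes whose tallest peak was 10 to 19 units, 86.4% held a peak in all 3 libraries (198 genes), and Socs1 and Socs4 both did. In replicate 2, Socs1 did so by its 8-nt peak alone. Of the genes with a tallest peak of 4 to 5 units, 39.9%, 43.1% and 51.8% had no peak in replicates 1, 2 and 3. Among the members of this class, Socs3 was missing from replicate 3, Cish from replicate 2, and Socs2 from replicates 1 and 3. Why they were missing was not tested.

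**Figure D3:**
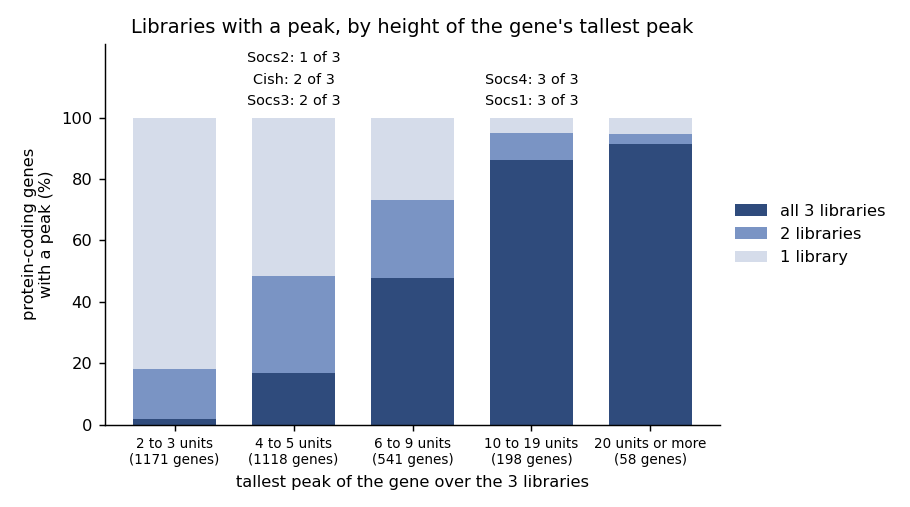
Share of protein-coding genes with a Tet2 CLIP peak that were found in all 3, in 2 or in 1 of the libraries, by the height of the gene's tallest peak over the libraries; the number of genes is under each bar and the SOCS family genes of that class stand above it. The share found in all 3 libraries is 16.8% at 4 to 5 units, the class of Socs3, Cish and Socs2, and 86.4% at 10 to 19 units, the class of Socs1 and Socs4.

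At the level of sites, the 16 peaks formed 11 loci, of which 7 were found in 1 library, 3 in 2 and 1 in all 3. In protein-coding spans, 74.5% of 5242 loci were found in 1 library, 14.9% in 2 and 10.6% in all 3, against 63.6%, 27.3% and 9.09% in the family. There were 6 pairs of overlapping peaks from different libraries in the family, and 5 of them had the same first or the same last base (3 pairs in Socs4, 1 in Cish and 1 in Socs1). The Socs3 pair had neither. In protein-coding spans, 57.4% of 2399 such pairs shared a first or last base, so exact edges were common in these lists.

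Most peaks of Socs1, Socs3 and Cish lay well inside the span, and those of Socs4 and Socs2 lay near an end. A Socs1 peak of replicate 1 lay at 13.9% of the span counted from the low end. The median distance of a peak's midpoint from the nearest end was 36.5%, 30.0% and 34.3% of the span in replicates 1, 2 and 3, or 33.6% ± 3.33 (SD, n = 3). Over all peaks in protein-coding spans the median was 12.1%, 11.4% and 11.4%. Socs1, a short gene, gave 6 of the 16 family peaks, and the protein-coding spans were not matched to the family for length. The difference is therefore not read as a trait of the family. The midpoints of all 3 Socs4 peaks lay within the first 1.44% of the span, and the Socs2 peak lay at 98.3% of the span counted from the low end. Widths ran from 8 to 141 nt, with a median of 54.5 nt, against 55, 55 and 56 nt in protein-coding spans. Exons, coding sequence and UTRs, and the bases under the peaks, were not analysed here.

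The profiles of Socs1, Socs3 and Socs4 over the 3 libraries were compared with those of all other protein-coding genes by Euclidean distance in log2(tallest height + 1). Nearest to Socs1 were the histone gene H2bc14 (12, 19 and 5 units, distance 0.26), Rapgef1, a Rap1 exchange factor (10, 15 and 5 units, 0.36), and Zfp229 (13, 14 and 6 units, 0.41). Nearest to Socs4 were Golga7 (10, 12 and 9 units, 0.18), Macf1, a cytoskeletal linker (10, 10 and 9 units, 0.19), and Rusc2 (9, 13 and 9 units, 0.22). For Socs3, 17 other genes had the identical profile of 4, 4 and 0 units, among them Atp2a3, Glp2r and Lrmda. With 3 libraries, such likeness says little beyond a like height in each.

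The other genes of the pathway were taken as 8 lists of 83 genes in all, of which 23 (27.7%) had a peak in any library and 5 in all 3, against the 14.1% and 3.16% of protein-coding genes given above. Of 20 cytokine receptor genes 7 held a peak, led by Csf2rb2 (29, 27 and 20 units) and Csf2rb (13, 11 and 10 units), near-identical beta chains of the interleukin-3 receptor, and Kit, which binds stem cell factor (12, 5 and 7 units). Of 4 JAK kinases 2 held a peak, Tyk2 (5, 6 and 0 units) and Jak1 (0, 0 and 3 units), and Jak2, the kinase of the interleukin-3 receptor, held none. Of 7 STAT genes 5 held a peak, with Stat5a at 3, 3 and 0 units, Stat5b at 3, 0 and 0, Stat3 at 4, 0 and 0 and Stat6 at 3, 0 and 6. The 5 STAT genes all had a peak in replicate 1 but only 1 of them in each other library, and none was found in all 3. Csf2rb and Csf2rb2 are near-identical, and Stat5a and Stat5b are similar neighbouring genes. How the authors' mapping divided reads between such copies was not analysed here, so values within each pair may not be independent.

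Downstream and beside the SOCS genes, 4 of 9 STAT target genes held a peak, led by the kinase Pim1 (13, 7 and 10 units), followed by Ccnd2, which encodes cyclin D2, and Mcl1, which encodes a survival protein, with 4, 0 and 0 units each. Myc, the fourth of these genes, named after its values were seen, tied with Ccnd2 and Mcl1. Of 11 other inhibitors of the pathway, 3 held a peak (27.3%), against 14.1% of all protein-coding genes. They were Ptpn1 (3, 3 and 0 units), Ptpn11 (0, 0 and 4 units) and Ptpn2 (0, 3 and 0 units), and none was found in all 3 libraries. None of the 6 genes of the ubiquitin ligase that SOCS boxes recruit held a peak. With a share of 14.1% over all protein-coding genes, an absence in so few genes says little. Of 24 other genes for SOCS box proteins, 2 held one, Spsb3 (0, 4 and 3 units) and Asb3 (0, 3 and 0 units). Their share was 8.33%, beside 14.1% of all protein-coding genes, and 24 genes are too few to read the difference. Tet2 itself and Adar, the RNA editing enzyme, held no peak in any library, as did most protein-coding genes.

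**Figure D4:**
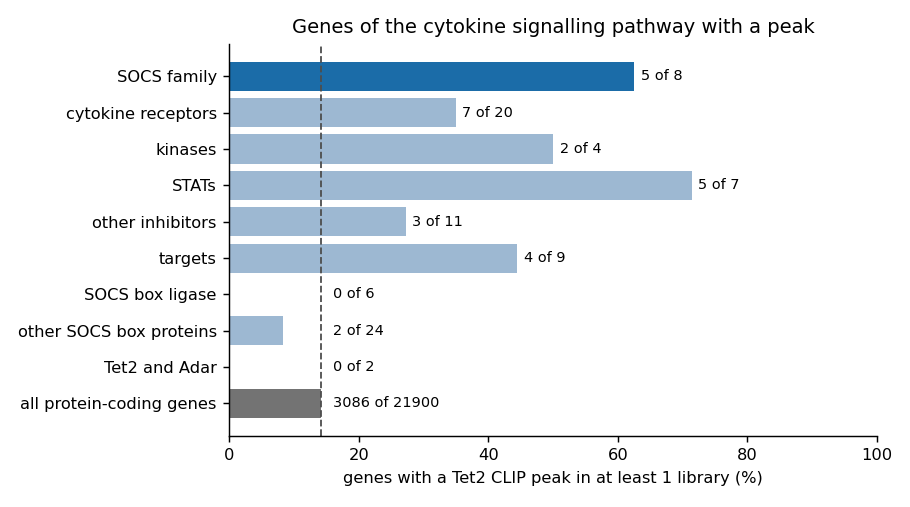
Share of genes with a Tet2 CLIP peak in any library, for the SOCS family and 8 lists of related genes, with the number of genes beside each bar; the dashed line and the lowest bar give all protein-coding genes (14.1%). The SOCS family stands at 62.5% (5 of 8).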

How the data were processed

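Per the submitters' processing notes, the tools included cutadapt 1.9 and STAR 2.4.0i, and the build was mm10; per the labels' protocols, a valley-seeking method called the peaks, and no source used here gives its settings. The values are a signal: the authors deposited each peak's position and its normalized height, per library. Peak starts and ends are positions on mm10; the deposited starts were read as 0-based and are printed 1-based.

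Heights were converted to whole units (within 0.05 of a unit for every peak). Each column block names a replicate number, matched to the sample titles. Gene spans (49997 genes) are those of RefSeq on GRCm38.p6, and strands and starts of 4 members from RefSeq's promoter table; a peak belonged to each span holding its midpoint. Libraries shared a locus at an overlap of at least 1 nt. No count model and no test was used, since there is 1 group without a control. Sequencing depth is unknown. Members and lists were chosen with earlier results of these data known. Named list genes are the 3 per list with the tallest mean peak (ties by symbol), plus Jak2, Stat3, Stat5a, Stat5b, Adar and Tet2. Assignment and sharing were checked on simulated data (1500 of 1500 peaks and 200 of 200 shared loci recovered, 500 genes). Python 3.11.15, numpy 2.4.6 and scipy 1.17.1 were used.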

Additional observations from a re-analysis of the deposited data

How the results depend on the processing

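The count of 5 members with a peak was 4 or 5 in most settings (any overlap with the span, widened spans, peaks at least 10 nt wide, peaks in 1 span, peaks in at least 2 libraries, at least 2 peaks per gene, and 4 to 5 when a replicate was left out). It was 3 with only peaks of at least 5 units, which removes Socs2 and Socs3, and 2 when all 3 libraries were required. The share of peaks was 0.360% ± 0.226 (SD, n = 3) with only peaks of at least 5 units, and 0.189% to 0.205% when a replicate was left out. The share of summed height was 0.214% with widened spans and 0.287% when set over protein-coding spans. It was 0.205% to 0.211% when a replicate was left out. It varied more between libraries with peaks of at least 5 units (0.254% ± 0.0425) and with peaks at least 10 nt wide (0.234% ± 0.0702, SD, n = 3). Loci shared by all libraries used numbered 1 at an overlap of at least 1 nt, 2 when peaks within 100 nt were merged (the central Socs1 site joins Socs4), and 2 in each case when a replicate was left out, where only the remaining 2 libraries need to share them. The median distance from the nearest gene end was 28.3% ± 5.57 of the span with peaks of at least 5 units. With peaks at least 10 nt wide it was 28.9% ± 11.4 (SD, n = 3). The 23 pathway genes with a peak became 5 when all 3 libraries were required and 8 (9.64%, against 5.65% of protein-coding genes) with peaks of at least 5 units, and 17 to 20 when a replicate was left out. No paired analysis was possible because there is 1 group. Heights of Socs3, Socs2 and Cish lie within 2 units of the lowest listed height, and why they are missing from some libraries was not tested.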

Other observations

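The Socs4 gene starts next to Wdhd1, which runs the other way and held no peak within 5000 nt of Socs4 in any library. Every other member except Socs3 also had no peak within 5000 nt outside its span, so this is not particular to Socs4.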
